A study of Homo sapiens with 12 samples.

Results

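Integrins are the receptors that hold a cell to its matrix, and laminins are the matrix proteins that many of them hold on to. The genes described here are the 38 of 58735 in the deposited expression table whose symbols name an integrin alpha chain (18 genes), an integrin beta chain (8 genes) or a laminin chain (12 genes). The rule for the choice uses symbols and no measured value, though the gene families were picked with earlier results of these data known. RNA came from hCMEC/D3 cells, an immortalised line of human brain microvascular endothelium that is grown as a model of the blood-brain barrier. The tested cells received nanoparticles labelled SiNP, an abbreviation that the labels do not spell out, of 35 nm (4 libraries) or 58 nm (4 libraries), each at 100 µg/mL for 24 h. The 4 control libraries came from untreated cells of the same line, and nothing in the labels says whether these received a vehicle. Whether the 4 libraries of a group are 4 cultures is not stated either. The p-values therefore describe library-to-library spread only, and this may be technical.

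Libraries held 9472317 to 10678269 gene reads. Of 12 endothelial markers, 7 averaged at least 1 FPKM over all libraries (the unit of the deposited values, a read count divided by gene length in kilobases and by library size): EGFL7, TIE1, ROBO4, ESAM, CDH5, PECAM1 and VWF. Their whole list summed to 19.0 to 22.6 FPKM in 35 nm libraries, 18.8 to 21.3 FPKM in 58 nm libraries and 19.4 to 20.8 FPKM in control libraries. The other 5 (CLDN5, KDR, TEK, ERG and EMCN) lay below 1 FPKM in every group mean, with CLDN5, the main claudin of brain endothelium, at 0.0927, 0.0955 and 0.117 FPKM in the 35 nm, 58 nm and control groups. Fibroblast markers (3 of 6 at 1 FPKM or more, led by COL1A1) summed to 271 to 289 FPKM in 35 nm, 263 to 278 FPKM in 58 nm and 235 to 257 FPKM in control libraries. Epithelial markers (3 of 6, led by KRT18, with KRT5 and CDH1 at 0 everywhere) summed to 41.1 to 49.3, 45.6 to 54.5 and 51.8 to 55.8 FPKM in the same order. Pericyte and smooth muscle markers (3 of 8, led by PDGFRB and CSPG4, with KCNJ8 at 0 everywhere) summed to 38.5 to 43.3, 41.4 to 44.0 and 39.5 to 42.5 FPKM. Leukocyte markers summed to at most 1.46 FPKM in any library. With 35 nm against control, COL1A1 (log2 change 0.29, limma adjusted p = 0.000583) and CSPG4 (0.35, 0.000331) rose, and PDGFRB (−0.31, 0.000383) and KRT18 (−0.30, 0.001732) fell. COL1A1 also rose with 58 nm against control (0.20, limma adjusted p = 0.03038), and with 58 nm against 35 nm PDGFRB (0.27, 0.004262) and KRT8 (0.30, 0.04431) were higher and CSPG4 (−0.21, 0.02546) lower. The other fibroblast markers at this level, COL1A2 and LUM, passed in no comparison, with log2 changes of 0.04 and −0.14 with 35 nm and 0.10 and −0.13 with 58 nm against control (limma adjusted p of 0.4411, 0.162, 0.1661 and 0.3579). ACTA2 and KRT19 passed in none either, and 0 of the 7 endothelial markers passed in limma in any comparison (with 35 nm and 58 nm against control and 58 nm against 35 nm, 1, 0 and 2 of them had an unadjusted p under 0.05). The part that these markers have in the results below was not tested, and in bulk RNA a change in the share of cells of a type and a change in RNA per cell cannot be told apart. The libraries also differed in how their values leaned with base composition: across genes, Spearman's rho between GC content and a library's deviation from the gene mean was 0.151 to 0.555 in 35 nm, −0.296 to 0.358 in 58 nm and −0.457 to −0.231 in control libraries. On both measures 58 nm library 1 stood apart from its group, with a rho of 0.358 to GC content, against −0.296 to −0.0936 in the other 58 nm libraries, and of −0.319 to gene length, against 0.0898 to 0.164.

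An integrin is a pair of 1 alpha and 1 beta chain, and the alpha chain largely sets which ligand it binds. The chains fall into classes that bind collagen, laminin, or the Arg-Gly-Asp (RGD) motif of fibronectin and vitronectin, beside classes used mainly by leukocytes. A laminin is a trimer of an alpha, a beta and a gamma chain, named by the numbers of its chains, and the alpha4 and alpha5 laminins are the ones known for the basement membrane of brain capillaries. Laminins with the alpha3 and beta3 chains are known mainly from epithelium, where the alpha6 beta4 integrin anchors to them in hemidesmosomes.

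LAMB3 and LAMA3, the beta3 and alpha3 chains of those epithelial laminins, moved in opposite directions after 35 nm particles, and both have an AP-1 motif (TGANTCA, the binding sequence of Fos and Jun dimers) upstream of an annotated RefSeq start. The LAMA3 sites lie in bases that GENCODE places in an exon of that gene, and the LAMB3 site does not. The sequences are shown so that the shared motif can be seen beside the values. Windows of 250 bases upstream of RefSeq starts (GRCh38.p14) were searched on both strands. Bases that GENCODE places in an exon of the gene are left off the longer runs, and capitals mark a match. The first line is from LAMB3 at chr1:209651395-209651624, minus strand, before a start 1092 bases inside the gene. The second is from LAMB3 at chr1:209652467-209652675, minus strand, before its most upstream RefSeq start, and its capitals mark an NF-kB motif. The last 2 lines are 27-base sites around the AP-1 motifs of LAMA3 at chr18:23872885-23872911 and chr18:23872941-23872967, plus strand, 125 and 69 bases before a start that lies 183577 bases inside the locus.
LAMB3 inner start: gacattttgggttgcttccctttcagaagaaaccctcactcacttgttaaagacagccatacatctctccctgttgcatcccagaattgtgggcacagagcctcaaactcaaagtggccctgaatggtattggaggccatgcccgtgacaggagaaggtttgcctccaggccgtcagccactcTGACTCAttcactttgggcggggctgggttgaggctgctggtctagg
LAMB3 upstream start: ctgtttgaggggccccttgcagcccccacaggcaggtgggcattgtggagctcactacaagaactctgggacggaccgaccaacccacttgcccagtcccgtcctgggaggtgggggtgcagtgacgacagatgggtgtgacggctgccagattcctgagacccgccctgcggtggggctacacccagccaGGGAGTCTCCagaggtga
LAMA3 distal site: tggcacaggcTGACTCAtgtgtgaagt
LAMA3 proximal site: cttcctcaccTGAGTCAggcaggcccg
The AP-1 motif occurred in 6.57% of all 35116 windows of this length and in 2 of the 24 windows of tested members, a share near that background. The 24 windows belong to 17 genes, and the 2 are of LAMB3 and LAMA3. TEAD's GGAATG, the motif of the factors that partner YAP, occurred in 11.9% of all windows and in 3 of the 24, of ITGA5, ITGA10 and ITGB1. An NF-kB motif occurred in 5.21% of all windows and in 6 of the 24, of ITGA1, ITGA5, ITGA10, ITGA11 and LAMB3. Of the 6, 2 are overlapping windows of LAMB3 that hold the same matches, so the same bases are counted in both. The NF-kB and TEAD matches of ITGA5 overlap. In ITGA5 the run at chr12:54419329-54419358, minus strand, which is exonic in GENCODE, holds both: cagggacccaGGAATGCCCCcccgccagcc. A match is a run of letters and says nothing of whether a factor binds there. Gene-level values do not separate the transcripts that begin at these starts.

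Of the 38 genes, 22 (14 integrins and 8 laminins) averaged 1 FPKM or more across all 12 libraries and were tested. The highest mean below the filter was 0.244 FPKM. The 16 below it were ITGA2B, ITGA4, ITGA8, ITGA9, ITGAD, ITGAL, ITGAM, ITGAX, ITGB2, ITGB6, ITGB7, ITGB8, LAMA1, LAMA2, LAMB4 and LAMC3. None of these reached more than 0.410 FPKM in any library (ITGA4), and ITGAL, the alpha chain of the lymphocyte receptor LFA-1, was at 0 in all 12. Among the untested laminins, LAMA2 ranged from 0.0604 to 0.150 FPKM, LAMB4 from 0.0261 to 0.119 FPKM, LAMC3 from 0 to 0.0521 FPKM and LAMA1 from 0 to 0.0126 FPKM. Of the leukocyte class, ITGAX ranged from 0.123 to 0.394 FPKM and ITGB2, its partner, from 0.0759 to 0.335 FPKM. ITGA4 ranged from 0.122 to 0.410 FPKM, ITGA2B from 0.0720 to 0.317 FPKM, ITGB8 from 0.0620 to 0.187 FPKM and ITGA9 from 0 to 0.130 FPKM. ITGAD reached at most 0.105 FPKM, ITGB7 0.0654 FPKM, ITGB6 0.0627 FPKM, ITGAM 0.0176 FPKM and ITGA8 0.0128 FPKM, each with 0 in at least 1 library.

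The levels of the tested chains spanned a wide range, on the FPKM scale, which is per length. ITGB1, the beta chain that pairs with the collagen and laminin alpha chains and with alpha5, was the highest at a mean of 272 FPKM over all libraries, and its range did not overlap that of LAMC1 in second place at 118 FPKM. LAMC1 was followed by LAMB1 (102 FPKM), ITGA3 (84.1 FPKM) and LAMB2 (53.9 FPKM), and of these neighbours only ITGA3 and LAMB2 did not overlap. A group of genes then lay close together: ITGA5 (48.1 FPKM), LAMB3 (47.7 FPKM), LAMA4 (44.97 FPKM), ITGA2 (39.1 FPKM) and LAMA5 (34.8 FPKM). LAMA5 did not overlap ITGB5 below it (28.2 FPKM), which overlapped ITGAV (27.9 FPKM), and ITGA6 (21.6 FPKM), ITGA11 (17.5 FPKM) and ITGA10 (16.1 FPKM) came next. ITGA7 (8.69 FPKM) overlapped neither of its neighbours, and below it lay ITGB4 (5.63 FPKM), ITGA1 (5.35 FPKM), ITGAE (2.87 FPKM), ITGB3 (2.14 FPKM) and LAMA3 (1.86 FPKM). The alpha4, alpha5, beta1, beta2 and gamma1 laminin chains were thus all well above the alpha3 chain. The beta3 chain averaged more than alpha4 or alpha5 over all libraries, but its range overlapped those of both. By group, LAMB3 averaged 58.5, 44.1 and 40.4 FPKM in 35 nm, 58 nm and control libraries, and LAMA4 40.9, 45.3 and 48.8 FPKM. Beta3 thus averaged more than alpha4 with 35 nm only.

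**Figure D1:**
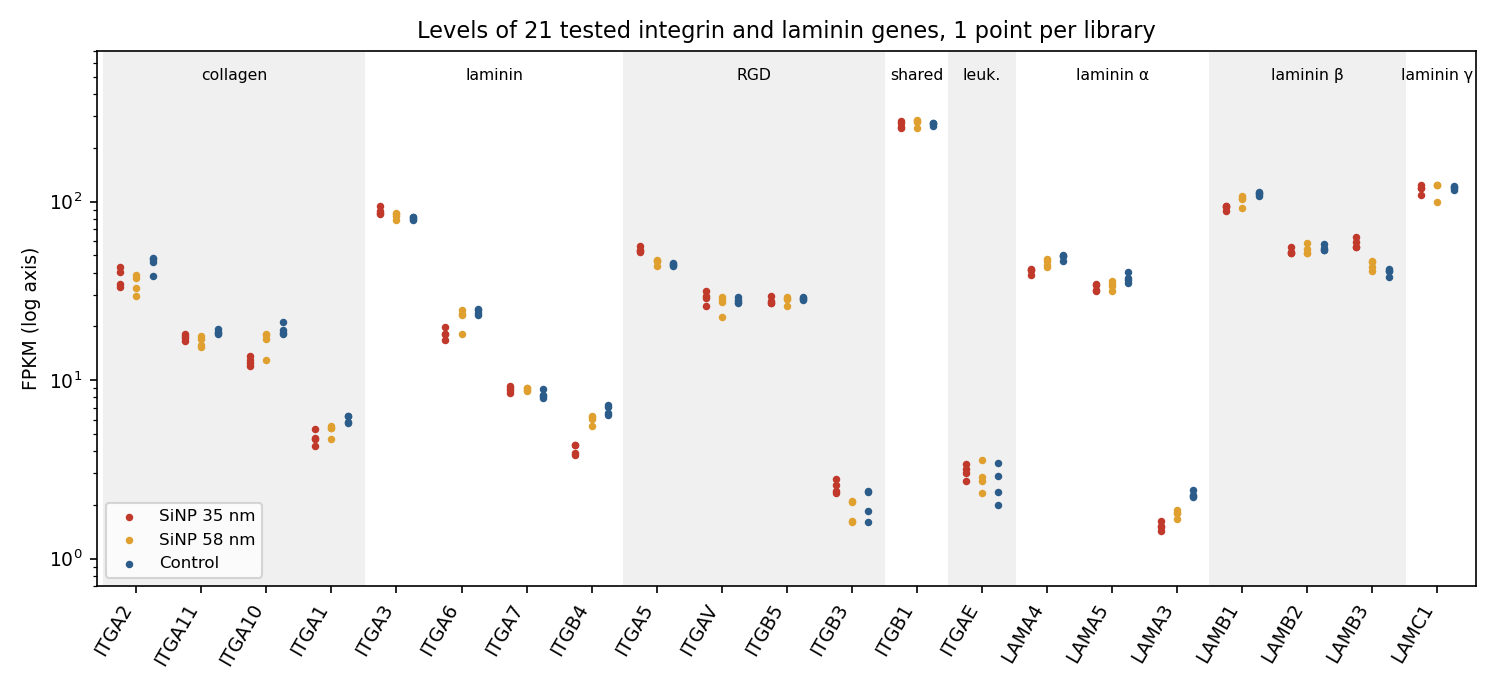
FPKM of 21 tested integrin and laminin genes (log axis), 1 point per library, with 35 nm left of 58 nm left of control for each gene and the ligand or chain class above. ITGB1 lies above all other genes, and ITGAE, ITGB3 and LAMA3 lie below 4 FPKM in every library.

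Changes were tested with limma on log2(FPKM + 1) over the 12176 genes that passed the filter, with Benjamini-Hochberg adjustment over all of them, and the words rose and fell are kept for an adjusted p under 0.05. After 35 nm particles, 3 of the 22 genes rose and 8 fell against control, where 35.4% of all tested genes changed (20.2% rose and 15.2% fell). The members' share in either direction, 11 of 22, stands beside that wide background. Their median log2 change was −0.05, against 0.0031 over all tested genes. In all 11 the 4 libraries of 35 nm and the 4 of control did not overlap, as in 36% of all tested genes. After 58 nm particles, 0 of the 22 passed the test against control in limma, where 4.13% of all tested genes changed. At an unadjusted p under 0.05 there were 10, beside 20.1% of all tested genes. Limma-voom on the recovered reads called 3 lower (ITGA11, ITGA1 and LAMA3), where it called 3.09% of all tested genes lower. Limma called 1 lower without control library 1 or without 58 nm library 4. The median log2 change was −0.08, against 0.0098 over all tested genes. Between the particles, 4 genes were higher and 2 lower with 58 nm than with 35 nm, where 11.4% of all tested genes differed (3.54% higher and 7.81% lower). The 4 became 1 without 35 nm library 1 or 3 or without 58 nm library 2, 3 or 4, and 2 without control library 2, 3 or 4 or without 35 nm library 2 or 4. In that comparison the members' median log2 change was 0.0014, against 0.0033 over all tested genes. The comparisons share the control or the 35 nm libraries, so they are not independent of each other.

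**Figure D2:**
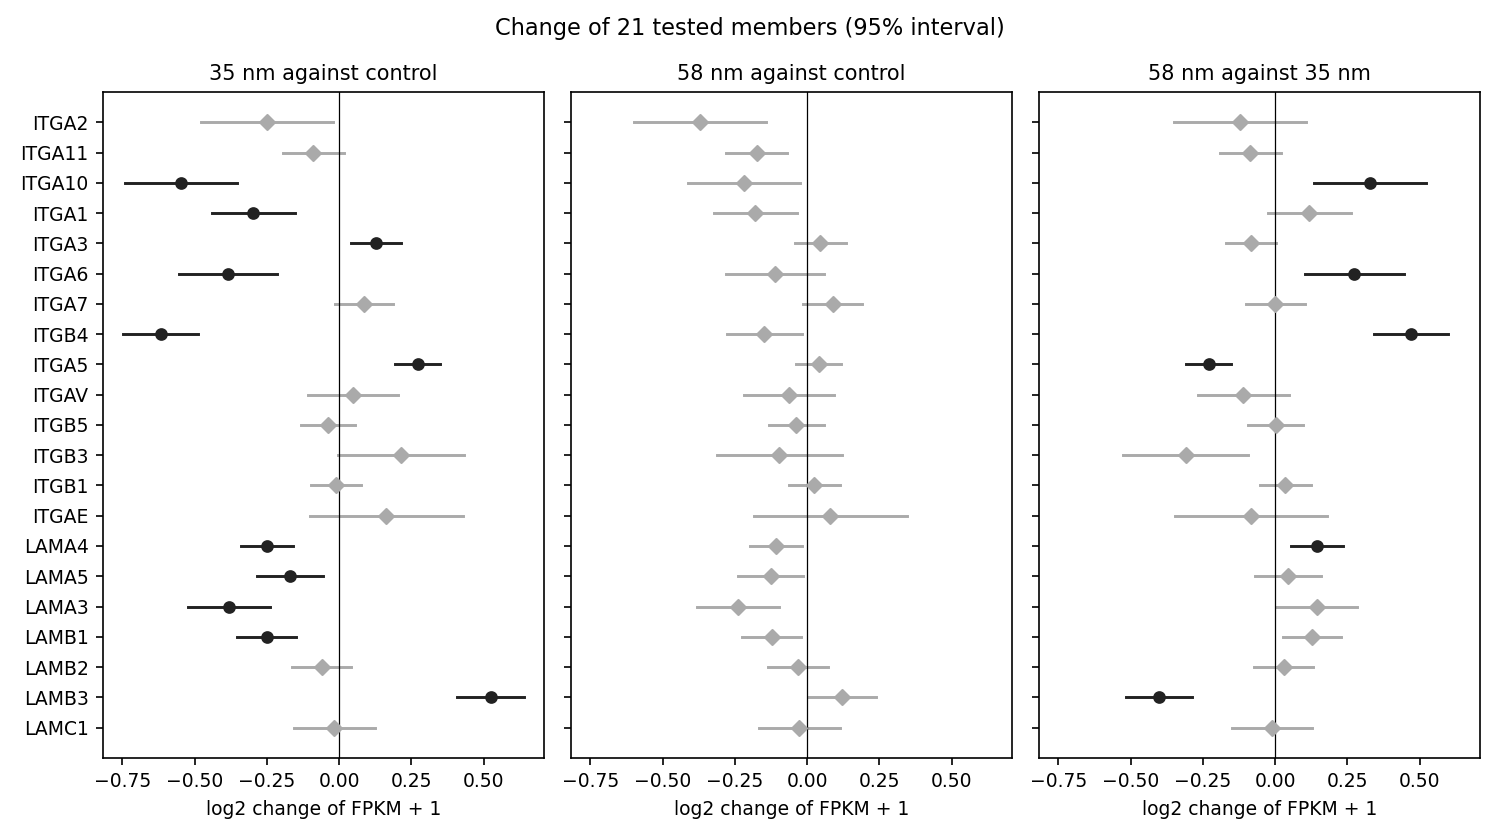
Log2 change of FPKM + 1 (horizontal axis) of 21 tested genes, with its 95% interval, in 3 panels (35 nm over control, 58 nm over control, 58 nm over 35 nm). Black circles passed the test at an adjusted p under 0.05 and grey diamonds did not; ITGB4, ITGA10 and LAMB3 have the largest changes with 35 nm, and none passed with 58 nm against control.

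Among laminins, LAMB3 rose after 35 nm particles, while LAMA3, LAMA4, LAMA5 and LAMB1 fell, beside 20.2% of all tested genes that rose and 15.2% that fell. LAMB3 (ENSG00000196878, chr1:209614870-209652466, minus strand, GRCh38) had 59.2, 55.6, 63.3 and 56.0 FPKM in 35 nm libraries, 45.8, 46.5, 41.0 and 43.0 FPKM in 58 nm libraries, and 37.7, 41.0, 41.8 and 41.0 FPKM in control libraries. Every 35 nm library was above every library of the other groups, and the 58 nm and control ranges met. The log2 change was 0.52 ± 0.05 (SE, n = 4 each, limma adjusted p = 1.535e-05) with 35 nm against control, a mean 1.45 times the control mean. It was 0.12 with a 95% interval of 0.01 to 0.24 with 58 nm against control (limma adjusted p = 0.222; 0.06 with the length and GC trends removed), and −0.40 ± 0.05 with 58 nm against 35 nm (limma adjusted p = 0.0007252). With the length and GC trends removed, the 35 nm change was 0.40 (limma adjusted p = 3.307e-05), and over all 24 alternatives its adjusted p ranged up to 0.0002682.

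LAMA3 (ENSG00000053747, chr18:23689443-23956222, plus strand), the alpha3 chain that combines with beta3, was low and fell. It had 1.51, 1.42, 1.63 and 1.52 FPKM in 35 nm libraries, 1.79, 1.67, 1.80 and 1.86 FPKM in 58 nm libraries, and 2.41, 2.21, 2.24 and 2.26 FPKM in control libraries. The 3 groups did not overlap at all, with 35 nm lowest and control highest. Between 58 nm and 35 nm, 16.2% of all tested genes did not overlap either. The log2 change of LAMA3 with 58 nm against 35 nm was 0.14 (95% interval 0.0019 to 0.28, limma adjusted p = 0.1735) and did not pass. Limma-voom gave 0.25 for it (adjusted p = 0.04336). The 35 nm mean was 66.6% of the control mean, with a log2 change of −0.38 ± 0.07 (SE, n = 4 each, limma adjusted p = 0.000761), which the pseudocount of 1 understates for a gene this low. The 58 nm mean was 78.1% of the control mean, with a log2 change of −0.24 (95% interval −0.38 to −0.10, limma adjusted p = 0.0618). Under limma-voom that change was −0.36 (adjusted p = 0.003819), and over the 23 alternatives that gave a value its adjusted p ranged from 0.003819 to 0.1541. The ratio of LAMB3 to LAMA3 in FPKM was 36.9 to 39.3 in 35 nm libraries, 22.8 to 27.8 in 58 nm libraries and 15.6 to 18.6 in control libraries, so the groups did not overlap in it. Of the 3 epithelial markers at 1 FPKM or more, KRT18 averaged 39.9, 43.0 and 49.2 FPKM in the 35 nm, 58 nm and control groups, KRT8 averaged 3.57, 4.62 and 3.67 FPKM, and KRT19 averaged 1.20, 0.969 and 1.14 FPKM. The order of KRT18 was that of LAMA3, and the orders of KRT8 and KRT19 were not. The part of these markers in the values of LAMB3 and LAMA3 was not tested.

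LAMA4 (ENSG00000112769, chr6:112108760-112254939, minus strand), the alpha4 chain, had 38.9, 41.1, 42.1 and 41.4 FPKM in 35 nm libraries, 43.1, 47.5, 43.9 and 46.5 FPKM in 58 nm libraries, and 46.5, 49.4, 50.002 and 49.2 FPKM in control libraries. The 35 nm libraries lay below all others, and 58 nm overlapped control. LAMA4 fell with 35 nm by 0.25 ± 0.04 on the log2 scale (SE, n = 4 each, limma adjusted p = 0.0006133), to 83.8% of the control mean. With 58 nm it was higher than with 35 nm by 0.14 (limma adjusted p = 0.0423), a call lost in 14 of 24 alternatives, with adjusted p of 0.008568 to 0.1209 over them all. Against control its log2 change with 58 nm was −0.11 (95% interval −0.20 to −0.02, limma adjusted p = 0.174).

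LAMA5 (ENSG00000130702, chr20:62307955-62367312, minus strand), the alpha5 chain, had 31.8, 34.2, 34.3 and 31.6 FPKM in 35 nm libraries, 31.6, 36.0, 33.8 and 34.7 FPKM in 58 nm libraries, and 40.3, 36.1, 37.5 and 35.0 FPKM in control libraries. The highest 35 nm library lay just under the lowest control library. The log2 change with 35 nm was −0.17 ± 0.05 (SE, n = 4 each, limma adjusted p = 0.0231), and −0.28 with the length and GC trends removed (limma adjusted p = 0.000542). That call was lost without control library 1 (limma adjusted p = 0.07037), without control library 3 (0.05327), without 35 nm library 1 (0.06457) or 4 (0.06153) and with no filter (0.06307). It was also lost with the length trend alone removed, where the change shrank to −0.095 (limma adjusted p = 0.1432), and the adjusted p over all 24 alternatives ran from 0.000542 to 0.1432. With 58 nm the log2 change was −0.13 against control (95% interval −0.24 to −0.01, limma adjusted p = 0.199; −0.19 with the length and GC trends removed, limma adjusted p = 0.03276) and 0.04 against 35 nm (limma adjusted p = 0.628).

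LAMB1 (ENSG00000091136, chr7:107923799-108003255, minus strand), the beta1 chain, had 88.4, 93.8, 94.6 and 94.8 FPKM in 35 nm libraries, 91.7, 104.3, 102.9 and 108.0 FPKM in 58 nm libraries, and 108.0, 112.8, 110.7 and 111.1 FPKM in control libraries. All 35 nm libraries lay below all control libraries, and the log2 change was −0.25 ± 0.05 (SE, n = 4 each, limma adjusted p = 0.0014). With 58 nm against 35 nm the log2 change was 0.13 (limma adjusted p = 0.0979), and without 58 nm library 1 it was 0.18 (limma adjusted p = 0.005243), and it passed in 5 of 24 alternatives in all. Of its exon bases, 3.57% lie opposite DLD and a further gene, whose reads cannot be told apart without strand. Against control the 58 nm log2 change was −0.12 (95% interval −0.22 to −0.02, limma adjusted p = 0.168), and −0.07 without 58 nm library 1.

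LAMB2 and LAMC1, the beta2 and gamma1 chains, passed no test as deposited. LAMB2 averaged 52.7 ± 2.0 FPKM with 35 nm, 53.9 ± 3.4 FPKM with 58 nm and 55.0 ± 2.1 FPKM in control (SD, n = 4 each), with log2 changes against control of −0.06 (95% interval −0.16 to 0.04, limma adjusted p = 0.349) and −0.03 (−0.13 to 0.07, limma adjusted p = 0.765). With length and GC trends removed its 35 nm change was −0.17 (limma adjusted p = 0.002577), and with quantile normalization −0.18 (limma adjusted p = 0.005458), within adjusted p of 0.002577 to 0.6284 over its alternatives. LAMC1 averaged 118.1 ± 6.2 FPKM with 35 nm, 117.5 ± 11.97 FPKM with 58 nm and 119.4 ± 2.9 FPKM in control (SD, n = 4 each). Its log2 changes against control were −0.02 (95% interval −0.16 to 0.12) and −0.03 (−0.17 to 0.11), with limma adjusted p of 0.864 and 0.858, and their sign turned in some alternatives.

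The shares of the laminin chains are given as a description, and no test was run on them. LAMB3 made up 28.6% ± 1.2 of the summed beta-chain FPKM with 35 nm, 22.1% ± 1.1 with 58 nm and 19.6% ± 0.7 in control (SD, n = 4 each). LAMB1 made up 45.5% ± 1.4, 50.9% ± 3.0 and 53.7% ± 0.6 in the same groups, while the summed level of the beta chains was 204.2, 199.7 and 206.1 FPKM. The summed alpha chains were 75.5 ± 2.6 FPKM with 35 nm, 81.2 ± 3.8 FPKM with 58 nm and 88.4 ± 1.5 FPKM in control (SD, n = 4 each). Within that sum the shares of LAMA4 were 54.2%, 55.8% and 55.2%, those of LAMA5 43.7%, 41.9% and 42.1%, and those of LAMA3 2.01%, 2.20% and 2.58%. The LAMA3 share was 1.85% to 2.08% in 35 nm libraries and 1.96% to 2.34% in 58 nm libraries, both below the 2.49% to 2.70% of control libraries.

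**Figure D3:**
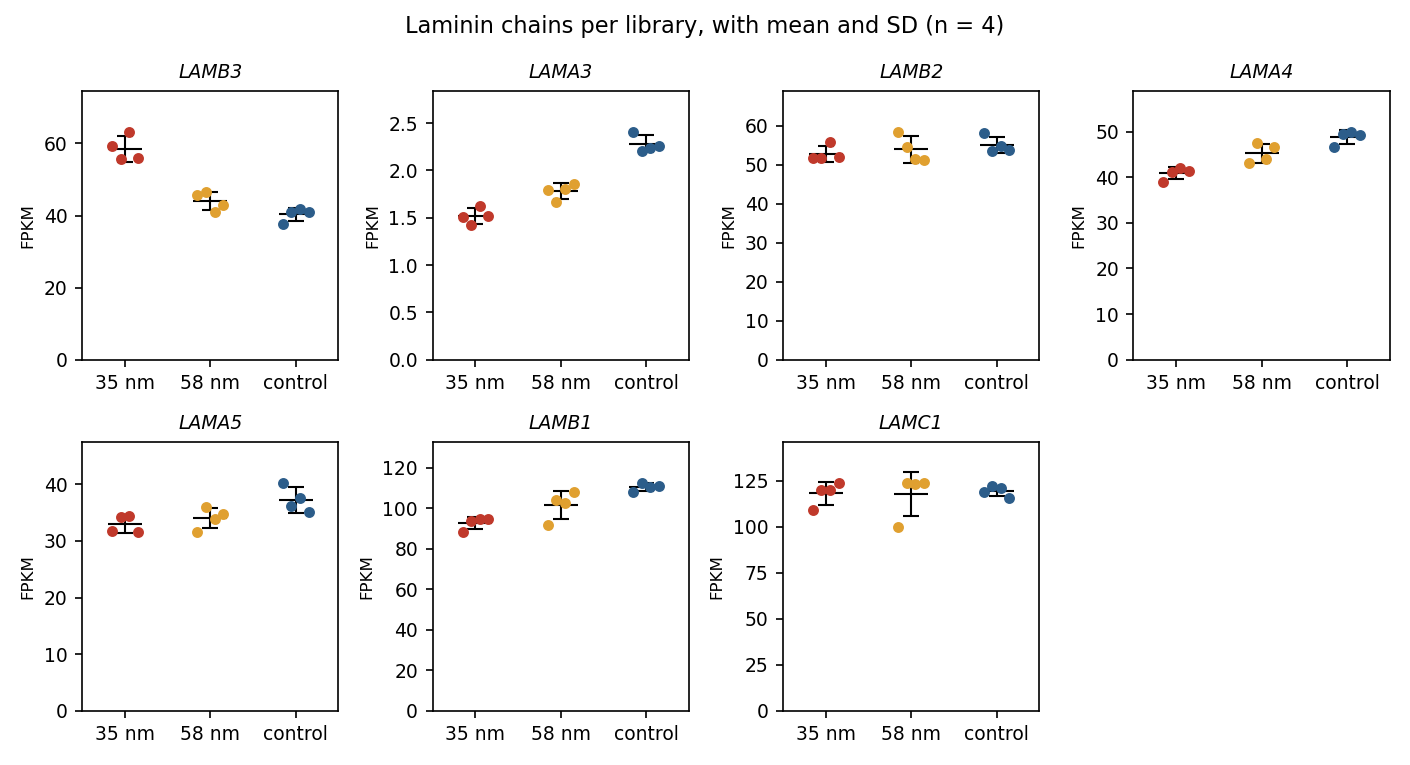
FPKM of 7 laminin chains (vertical axes from 0), 1 point per library for 35 nm, 58 nm and control, with the mean and SD of 4 libraries. LAMB3 is highest with 35 nm, LAMA3 falls into 3 separate groups with control highest, and 58 nm library 1 of LAMC1 lies at 99.6 FPKM, under the other libraries.

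Among the laminin-binding integrins, ITGB4 and ITGA6, the pair that binds laminin in hemidesmosomes, both fell with 35 nm, while ITGA3 had a small rise that depended on the scaling, beside 15.2% of all tested genes that fell and 20.2% that rose. ITGB4 (ENSG00000132470, chr17:75721328-75757818, plus strand), the beta4 chain, had 3.90, 4.31, 3.80 and 4.30 FPKM in 35 nm libraries, 6.07, 6.23, 6.26 and 5.56 FPKM in 58 nm libraries, and 7.08, 6.51, 6.34 and 7.23 FPKM in control libraries. The 3 groups did not overlap, with 35 nm lowest. The 35 nm mean was 60.01% of the control mean, and the log2 change of −0.62 ± 0.06 (SE, n = 4 each, limma adjusted p = 1.076e-05) was the largest fall among the tested genes of both families. With 58 nm the log2 change was −0.15 against control (95% interval −0.28 to −0.02, limma adjusted p = 0.187) and 0.47 ± 0.06 against 35 nm (limma adjusted p = 0.0005457). With the length and GC trends removed, the 35 nm change was −0.75 (limma adjusted p = 2.885e-06), and its adjusted p reached at most 0.0001356 over all 24 alternatives.

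ITGA6 (ENSG00000091409, chr2:172427354-172506282, plus strand), the alpha6 chain, had 16.8, 18.1, 18.2 and 19.9 FPKM in 35 nm libraries, 18.2, 24.8, 23.0 and 23.4 FPKM in 58 nm libraries, and 23.6, 25.05, 24.6 and 23.0 FPKM in control libraries. All 35 nm libraries were below all control libraries, and 58 nm library 1 lay among the 35 nm libraries while the other 3 lay near control. The log2 change with 35 nm was −0.38 ± 0.08 (SE, n = 4 each, limma adjusted p = 0.002473), a mean 75.7% of the control mean. With 58 nm it was −0.11 against control (95% interval −0.28 to 0.06, limma adjusted p = 0.473) and 0.27 against 35 nm (limma adjusted p = 0.0423). Without 58 nm library 1 these values were −0.02 against control (limma adjusted p = 0.905) and 0.36 against 35 nm (0.001101), but the call between the sizes was lost in 13 of 24 alternatives, whose adjusted p ran from 0.001101 to 0.1323. Of its exon bases, 5.37% lie opposite ITGA6-AS1 and other antisense genes. Of the epithelial markers KRT18 fell with 35 nm, as given above, while KRT8 (log2 −0.03, limma adjusted p = 0.7905) and KRT19 (0.05, 0.8219) did not pass. Where ITGB4 and ITGA6 were higher with 58 nm than with 35 nm, KRT8 was higher as well (log2 0.30, limma adjusted p = 0.04431), while KRT18 (0.10, 0.2615) and KRT19 (−0.16, 0.517) did not pass. The part of these markers in the changes of ITGB4 and ITGA6 was not tested.

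ITGA3 (ENSG00000005884, chr17:50055968-50090481, plus strand), the alpha3 chain that with beta1 binds laminins, had 88.5, 86.1, 93.9 and 84.8 FPKM in 35 nm libraries, 78.9, 85.5, 86.1 and 83.0 FPKM in 58 nm libraries, and 82.0, 81.5, 80.1 and 79.0 FPKM in control libraries. All 35 nm libraries lay above all control libraries. ITGA3 rose with 35 nm by 0.13 ± 0.04 on the log2 scale (SE, n = 4 each, limma adjusted p = 0.0243), but turned to −0.012 with quantile normalization (limma adjusted p = 0.845) and to 0.04 with the length and GC trends removed (limma adjusted p = 0.4718). The call was also lost in 4 of the 12 fits that left out a library: without control library 3 (limma adjusted p = 0.05693) or 4 (0.06261), or without 35 nm library 1 (0.05215) or 3 (0.06756). The adjusted p over all 24 alternatives ran from 0.002923 to 0.845. With 58 nm its log2 change was 0.05 against control (95% interval −0.04 to 0.13, limma adjusted p = 0.566), and −0.02 with quantile normalization. ITGA7, the alpha7 chain known from muscle, averaged 8.88 ± 0.37 FPKM with 35 nm, 8.88 ± 0.19 FPKM with 58 nm and 8.30 ± 0.40 FPKM in control (SD, n = 4 each). Its log2 changes were 0.09 with 35 nm (95% interval −0.01 to 0.19, and −0.026 with the length and GC trends removed) and 0.09 with 58 nm (−0.01 to 0.19), with limma adjusted p of 0.169 and 0.321. Of the FPKM of the 3 laminin-binding alpha chains, ITGA3 held 76.5% ± 1.3 with 35 nm, 72.8% ± 1.1 with 58 nm and 71.4% ± 0.5 in control, and ITGA6 held 15.8% ± 1.3, 19.4% ± 1.6 and 21.3% ± 0.6 (SD, n = 4 each).

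Of the 4 collagen-binding alpha chains, ITGA10 and ITGA1 fell with 35 nm, and ITGA2 and ITGA11 did not pass, beside 15.2% of all tested genes that fell. ITGA10 (ENSG00000143127, chr1:145891208-145910189, minus strand), the alpha10 chain known from cartilage, had 11.98, 13.7, 12.5 and 12.97 FPKM in 35 nm libraries, 12.9, 16.9, 17.8 and 18.1 FPKM in 58 nm libraries, and 18.3, 21.3, 18.1 and 19.0 FPKM in control libraries. Again 58 nm library 1 lay among the 35 nm libraries. The log2 change with 35 nm was −0.55 ± 0.09 (SE, n = 4 each, limma adjusted p = 0.0005712), a mean 66.8% of the control mean. With 58 nm it was −0.22 against control (95% interval −0.41 to −0.02, limma adjusted p = 0.195) and 0.33 against 35 nm (limma adjusted p = 0.0338). Without 58 nm library 1 these values were −0.11 against control (limma adjusted p = 0.3837) and 0.43 against 35 nm (0.0007812), and the call between the sizes was lost in 9 of 24 alternatives, whose adjusted p reached 0.1132.

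ITGA1 (ENSG00000213949, chr5:52787896-52959210, plus strand), the alpha1 chain, which favours basement membrane collagen, had 4.76, 4.66, 4.27 and 5.30 FPKM in 35 nm libraries, 4.66, 5.39, 5.39 and 5.50 FPKM in 58 nm libraries, and 5.77, 6.32, 6.31 and 5.81 FPKM in control libraries. Every treated library of either size lay below every control library. The log2 change was −0.30 ± 0.07 with 35 nm (SE, n = 4 each, limma adjusted p = 0.004041) and −0.18 with 58 nm (95% interval −0.32 to −0.04, limma adjusted p = 0.152). With the length and GC trends removed the 35 nm change was −0.11 and no longer passed (limma adjusted p = 0.08938), the 58 nm change was −0.09, and the 35 nm adjusted p ran from 5.253e-05 to 0.1434 over all 24 alternatives. Of the exon bases of ITGA1, 5.63% are shared on the same strand with PELO and a further gene, and PELO had the opposite change (log2 0.26 with 35 nm, limma adjusted p = 0.0008812). The sources used here do not say how reads in shared bases were counted.

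ITGA2, the alpha2 chain, which favours fibrillar collagen, was the most abundant of the class and varied most within groups. It averaged 37.8 ± 4.9 FPKM with 35 nm, 34.6 ± 4.1 FPKM with 58 nm and 44.99 ± 4.6 FPKM in control (SD, n = 4 each). The log2 changes against control were −0.25 with 35 nm (95% interval −0.48 to −0.02, limma adjusted p = 0.0854) and −0.37 with 58 nm (−0.60 to −0.14, limma adjusted p = 0.0722). Without control library 1, the lowest control at 38.3 FPKM, both passed, at −0.32 (limma adjusted p = 0.03194) and −0.45 (0.03927). The 35 nm change also passed without 35 nm library 2 (limma adjusted p = 0.03855) and with upper-quartile scaling (0.04768), and the 58 nm change with a filter of 5 FPKM (0.04559). With quantile normalization the 35 nm change was −0.35 (limma adjusted p = 0.03314), and with the length and GC trends removed it was −0.12 (limma adjusted p = 0.3478). The adjusted p over the alternatives ran from 0.007921 to 0.3478 with 35 nm and from 0.005816 to 0.1889 with 58 nm. ITGA11, the alpha11 chain known from fibroblasts, averaged 17.4 ± 0.7 FPKM with 35 nm, 16.4 ± 1.1 FPKM with 58 nm and 18.6 ± 0.5 FPKM in control (SD, n = 4 each). Its log2 changes were −0.09 with 35 nm (95% interval −0.19 to 0.02, limma adjusted p = 0.176) and −0.17 with 58 nm (−0.28 to −0.07, limma adjusted p = 0.0645). All its 58 nm libraries lay below its control libraries, and without 58 nm library 4 the adjusted p was 0.03424, within 0.02178 to 0.1629 over the alternatives. With 58 nm against 35 nm the log2 changes of ITGA1, ITGA2 and ITGA11 were 0.12, −0.12 and −0.09, with limma adjusted p of 0.269, 0.49 and 0.271. The value of ITGA1 was 0.02 with the length and GC trends removed, and that of ITGA2 was −0.20 with them removed and −0.05 without 58 nm library 1. The 4 chains summed to 72.7 ± 6.1 FPKM with 35 nm, 72.6 ± 7.6 FPKM with 58 nm and 88.8 ± 5.9 FPKM in control (SD, n = 4 each).

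Of the RGD-binding chains, ITGA5 rose with 35 nm, beside 20.2% of all tested genes, and none of the other 3 tested passed. ITGA5 (ENSG00000161638, chr12:54395261-54419460, minus strand), which with beta1 forms the fibronectin receptor, had 53.0, 53.8, 56.5 and 52.5 FPKM in 35 nm libraries, 43.7, 46.9, 46.3 and 46.5 FPKM in 58 nm libraries, and 44.2, 45.4, 44.6 and 43.8 FPKM in control libraries. All 35 nm libraries were above all others, and 58 nm and control overlapped. The log2 change was 0.27 ± 0.04 with 35 nm (SE, n = 4 each, limma adjusted p = 0.0001115), 0.04 with 58 nm (95% interval −0.04 to 0.12, limma adjusted p = 0.572), and −0.23 ± 0.04 with 58 nm against 35 nm (limma adjusted p = 0.00181). Both calls held in all 24 alternatives, with adjusted p of at most 0.01187 and 0.04064. The ratio of ITGA5 to ITGA6 was 2.64 to 3.16 in 35 nm libraries, 1.89 to 2.40 in 58 nm libraries and 1.81 to 1.90 in control libraries. ITGA6 does not stand for all laminin-binding alpha chains, most of whose FPKM came from ITGA3. Together those chains summed to 115.5 ± 3.8 FPKM with 35 nm, 114.6 ± 5.9 FPKM with 58 nm and 113.1 ± 1.6 FPKM in control (SD, n = 4 each).

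ITGAV, the alphav chain of the vitronectin receptors, averaged 28.9 ± 2.2 FPKM with 35 nm, 26.8 ± 2.9 FPKM with 58 nm and 27.9 ± 1.0 FPKM in control (SD, n = 4 each). Its log2 changes against control were 0.05 (95% interval −0.11 to 0.20) and −0.06 (−0.22 to 0.09), with limma adjusted p of 0.642 and 0.684. The 35 nm value was −0.02 with quantile normalization and 0.21 (limma adjusted p = 0.00562) with the length and GC trends removed, within adjusted p of 0.00562 to 0.9948 over its alternatives. With 58 nm against 35 nm the log2 change of ITGAV was −0.11 (limma adjusted p = 0.345). It passed with the length and GC trends removed, at −0.20 (limma adjusted p = 0.01794), within 0.01794 to 0.7068 over its alternatives. ITGB5 averaged 28.0 ± 1.2 FPKM with 35 nm, 28.0 ± 1.4 FPKM with 58 nm and 28.7 ± 0.5 FPKM in control (SD, n = 4 each), with log2 changes of −0.04 against control for both sizes (limma adjusted p of 0.527 and 0.691), and with the length and GC trends removed the 35 nm value was −0.12 (limma adjusted p = 0.05445). With the replicate number as a block as well, that value passed (limma adjusted p = 0.04702), within 0.04702 to 0.7534 over its alternatives. ITGB3, the beta3 chain, which can pair with alphav, averaged 2.52 ± 0.21, 1.84 ± 0.27 and 2.05 ± 0.39 FPKM in 35 nm, 58 nm and control libraries (SD, n = 4 each). Its log2 changes were 0.21 with 35 nm against control (95% interval −0.0035 to 0.43, limma adjusted p = 0.117; 0.13 with the length and GC trends removed), −0.10 with 58 nm against control (−0.31 to 0.12, limma adjusted p = 0.646) and −0.31 with 58 nm against 35 nm (−0.53 to −0.09, limma adjusted p = 0.0647). The last passed without control library 4 (limma adjusted p = 0.04997) and with limma-voom (0.04802), within 0.04802 to 0.2041 over its alternatives. Of ITGB3's exon bases, 51.6% are shared on the same strand with AC068234.1, which is at 0 in every library, so its level is uncertain.

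ITGB1, the shared beta chain, averaged 269.5 ± 10.5 FPKM with 35 nm, 276.2 ± 12.5 FPKM with 58 nm and 271.3 ± 5.1 FPKM in control (SD, n = 4 each). The log2 changes against control were −0.01 (95% interval −0.10 to 0.08, limma adjusted p = 0.867) and 0.02 (−0.06 to 0.11, limma adjusted p = 0.785). No direction can be given for it with 35 nm, since the change was −0.19 (limma adjusted p = 0.0132) with quantile normalization and 0.10 (limma adjusted p = 0.005508) with the length and GC trends removed. It held 88.5% ± 0.5, 88.4% ± 0.1 and 87.7% ± 0.4 of the FPKM of all 8 beta chains with 35 nm, 58 nm and control, and ITGB4 held 1.34% ± 0.05, 1.93% ± 0.15 and 2.20% ± 0.16 (SD, n = 4 each). The ratio of ITGB1 to ITGB4 was 63.6 to 68.2 in 35 nm libraries, 42.5 to 51.2 in 58 nm libraries and 37.3 to 43.2 in control libraries. ITGAE, the only tested chain of the leukocyte class, averaged 3.08 ± 0.28 FPKM with 35 nm, 2.87 ± 0.53 FPKM with 58 nm and 2.67 ± 0.64 FPKM in control (SD, n = 4 each), with log2 changes of 0.16 and 0.08 against control (limma adjusted p of 0.324 and 0.763), the first of which was 0.08 with the length and GC trends removed. Of its exon bases, 7.59% lie opposite HASPIN and a further gene, and since the strand of the libraries is not given, their reads cannot be told apart.

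**Figure D4:**
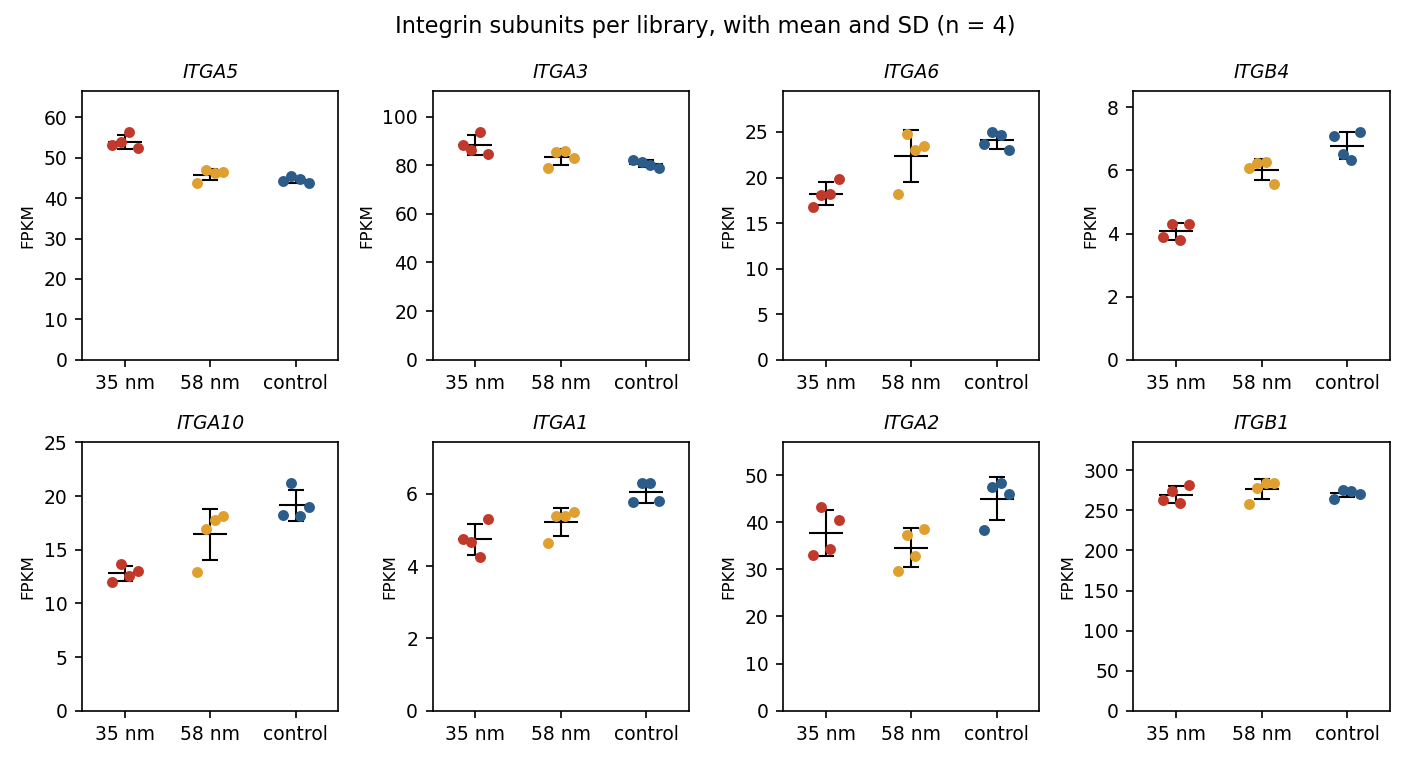
FPKM of 8 integrin chains (vertical axes from 0), 1 point per library for 35 nm, 58 nm and control, with the mean and SD of 4 libraries. ITGA5 is highest and ITGB4, ITGA6, ITGA10 and ITGA1 are lowest with 35 nm, ITGA3 differs little beside its level, and ITGA2 and ITGB1 overlap between 35 nm and control.

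The other ligands and the machinery inside the cell were read from 2 further lists. Of 39 extracellular ligands and basement membrane partners, 31 were tested, and with 35 nm against control 15 rose and 4 fell, beside the 20.2% and 15.2% of all tested genes. The median log2 change of the list was 0.15, and the 15 became 9 with quantile normalization. With 58 nm against control 5 rose and 2 fell (2.18% and 1.95% of all tested genes), with a median of 0.09. The 5 became 3 without control library 2, 3 or 4 or 58 nm library 2 or 3, and the 2 became 0 without control library 2 and 1 without control library 3 or 4 or 58 nm library 2 or 3. With 58 nm against 35 nm 0 were higher and 7 lower in limma (3.54% and 7.81% of all tested genes), with a median of −0.08. At an unadjusted p under 0.05 there were 15 of either direction, where 27.8% of all tested genes had one, and limma-voom called 2 higher, where it called 6.87% of all tested genes higher. The 0 became 3 without 58 nm library 1. TNC, the matrix protein tenascin-C that several integrins bind, averaged 21.5 ± 0.6 FPKM with 35 nm, 13.1 ± 0.9 FPKM with 58 nm and 9.38 ± 0.70 FPKM in control (SD, n = 4 each), with log2 changes of 1.11 and 0.44 against control. CYR61, a matrix-bound integrin ligand induced by YAP, averaged 304.2, 252.8 and 187.9 FPKM, with log2 changes of 0.69 and 0.42. CTGF, its close relative, averaged 244.4, 225.2 and 168.6 FPKM, with log2 changes of 0.53 and 0.42. All 6 of these changes passed in limma.

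Of 42 genes of integrin activation and the adhesome, the proteins that tie integrins to actin, 37 were tested. With 35 nm against control 13 rose and 4 fell (20.2% and 15.2% of all tested genes), with a median log2 change of 0.08. The 4 became 2 without control library 2 or 35 nm library 1. With 58 nm against control 4 rose and 0 fell in limma (2.18% and 1.95% of all tested genes), with a median of 0.05. Of the 37, 9 had an unadjusted p under 0.05, beside 20.1% of all tested genes, and limma-voom called 0 lower. The 4 became 1 without control library 3 or 58 nm library 2, and 2 without control library 2 or 4. With 58 nm against 35 nm 3 were higher and 9 lower (3.54% and 7.81% of all tested genes), with a median of −0.03. The 9 became 3 without 35 nm library 1 or 3 or 58 nm library 4, 4 without 58 nm library 3, and 5 without control library 1 or 3, 35 nm library 2 or 58 nm library 2. The 3 became 1 without 35 nm library 1 or 2 or 58 nm library 3 or 4. ILK, the integrin-linked kinase, averaged 1.99 ± 0.24 FPKM with 35 nm, 1.42 ± 0.41 FPKM with 58 nm and 0.861 ± 0.166 FPKM in control (SD, n = 4 each). Its log2 change against control was 0.69 with 35 nm (limma adjusted p = 0.00106) and 0.37 with 58 nm (limma adjusted p = 0.1186), which did not pass. ILK is a low gene, with a control mean under the filter level, so counting error weighs on its values. Exon bases it may share with other genes were not examined. FLNA, the actin crosslinker filamin A that binds beta chains, averaged 584.7 FPKM with 35 nm, 489.0 FPKM with 58 nm and 424.1 FPKM in control, with log2 changes of 0.46 and 0.20. ACTN1, alpha-actinin 1, averaged 50.9 ± 1.2 FPKM with 35 nm, 42.1 ± 1.2 FPKM with 58 nm and 36.9 ± 1.4 FPKM in control (SD, n = 4 each). Its log2 changes against control were 0.45 with 35 nm and 0.19 with 58 nm (limma adjusted p of 2.675e-06 and 0.01428). With 58 nm the largest called changes beside FLNA were those of BCAR1, the scaffold p130Cas (log2 0.25, limma adjusted p = 0.0165), and ZYX, zyxin of focal adhesions (log2 0.22, limma adjusted p = 0.0305).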

How the data were processed

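FPKM values of 58735 genes in 12 libraries, named so in the file headers, were deposited by the authors. Bowtie 0.12.2 and hg19 appear in the submitters' processing notes, but identifiers, positions and lengths of all 58735 genes equal those of GENCODE 29, so coordinates are GRCh38 and the alignment build is unresolved. FPKM times gene length, divided in each library by what 1 read is worth, gave whole reads for 100% of values (tolerance 0.01 reads), 9472317 to 10678269 per library. The worth of 1 read was recovered from the steps between low values and equals scaling by library sizes of 9597535 to 10933782. These carry counting error, which limits low genes most, and 3 reads in 1 kb correspond to 0.274 to 0.313 FPKM. Values were tested as log2(FPKM + 1), with genes at a mean of at least 1 FPKM, in 1 limma 3.58.1 fit (R 4.3.3, trended, robust, two-sided) of 3 group means, and were adjusted over 12176 genes. Fold changes on this scale are understated for low genes. The fit was tested on simulated data that had the same dispersion for every gene and no length or GC trends. That test therefore does not cover the trends in these libraries. Every member above the filter but 1, which is not reported here, is named with its values, those below it with their range, and of each further list the 3 called genes with the largest change per comparison with control. The members and lists were chosen with earlier results of these data known. Alternatives changed the pseudocount (0.1), filter (none or 5 FPKM), scaling, length and GC trends, test, block and libraries. Promoter windows are from RefSeq (26 of 38 members matched).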

Additional observations from a re-analysis of the deposited data

Results flagged for a closer look

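Dixon's test was applied to each of 66 groups of 4 libraries (22 genes in 3 groups), and in 4 a library stood farther from the others than the critical value at the 95% level, where chance gives about 1 in 20. LAMC1 in 58 nm library 1 was low, at 99.6 FPKM, against 123.1 to 124.0 FPKM in the other 3. ITGA1 in the same library was low, at 4.66 FPKM, against 5.39 to 5.50 FPKM. LAMB1 in 35 nm library 1 was low, at 88.4 FPKM, against 93.8 to 94.8 FPKM. LAMB2 in 35 nm library 3 was high, at 55.7 FPKM, against 51.6 to 52.0 FPKM. The 58 nm library with 2 of the 4 is the one with the lowest rho to gene length, −0.319, and the highest of its group to GC content, 0.358, and the part of either in these values was not tested.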

How the results depend on the processing

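Each of 63 changes (21 genes in 3 comparisons) was recomputed under up to 24 alternatives, of which 12 left out a library. Of the 11 calls with 35 nm against control, 8 held in all that gave a value (not ITGA3, LAMA5 and ITGA1), and of the 6 with 58 nm against 35 nm, 3 held (ITGB4, LAMB3 and ITGA5). Genes lower with 58 nm against control numbered 0, but 2 with a filter of 5 FPKM, 2 with length and GC trends removed, 3 with limma-voom (chosen after seeing the data), and 0 to 1 with a library left out. Genes higher with 58 nm against 35 nm numbered 4, but 1 each with no filter, with TPM and with only the 2 groups fitted, and 1 to 5 with a library left out. The labels do not say whether replicate numbers pair the libraries. Over all tested genes, deviations from the group means correlated at −0.065 to 0.159 between same-numbered libraries and at −0.156 to 0.115 between others. These values cannot decide whether same-numbered libraries shared a batch, since each is taken over all genes together. With the replicate number as a block, 1 gene was lower with 58 nm against control, and with block, length and GC together 2 were, while 4 were lower with 58 nm against 35 nm. With the block ITGA2 passed with 35 nm (limma adjusted p = 0.007921) and 58 nm (0.006346) against control at unchanged log2 values, and with block, length and GC together with 58 nm against control (−0.31, 0.005816) and against 35 nm (−0.20, 0.02952). Signs that turned, in log2 and with no cause tested, were as follows. Quantile normalization gave ITGA3 −0.0123 and ITGAV −0.0204 with 35 nm, ITGA3 −0.0205 and ITGB1 −0.0274 with 58 nm, and LAMC1 0.0618 between the sizes. Removing length and GC trends, with or without the block, gave ITGA7 −0.0261 and ITGB1 0.1036 with 35 nm, ITGAV 0.0122 with 58 nm, and ITGB1 −0.0372 between the sizes. The length trend alone gave LAMC1 0.0303 with 35 nm, and ITGA7 −0.0092 and ITGB5 −0.0090 between the sizes. LAMC1 between the sizes was 0.0208 with upper-quartile scaling and 0.0071 with limma-voom. With a library left out, the 35 nm changes of ITGB1 ran from −0.0325 to 0.0080 and of LAMC1 from −0.0393 to 0.0195. Those with 58 nm ran from −0.0553 to 0.0491 for LAMC1, −0.1021 to 0.0139 for ITGAV and −0.0128 to 0.1782 for ITGAE. Between the sizes they ran from −0.0474 to 0.0662 for LAMC1, −0.0096 to 0.0558 for LAMB2, −0.0160 to 0.0373 for ITGB5 and −0.0224 to 0.0214 for ITGA7. Over all alternatives the ligand list had 9 to 17 higher and 4 to 5 lower with 35 nm, 3 to 7 and 0 to 2 with 58 nm, and 0 to 3 and 4 to 10 between the sizes. The adhesome list had 10 to 16 and 2 to 6, 1 to 5 and 0, and 1 to 3 and 3 to 10 in the same comparisons. The edgeR quasi-likelihood fit and limma-voom with TMM were not run.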
